A study of Homo sapiens with 14 samples.

Results

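The 38 genes described here code for the core machinery of apoptosis, and their gene starts were searched for intervals of STAT5 and BCL6 chromatin immunoprecipitation with sequencing (ChIP-seq). Members were taken by gene symbol from lists that hold 26333 symbols in all. They fall into the BCL2 family (16 genes), caspases with the apoptosome (7), inhibitors of apoptosis with their antagonist (6) and death receptors with their ligands and adaptors (9). The 4 separate lists together had rows for 34 of the 38. The experiment used DLD-1, an established colorectal adenocarcinoma line, transfected by lipofection, and the share of transfected cells is not stated in the labels. Activator cells received the plasmid pEGFP-C1199Tiam1, which codes for a fragment of the RAC exchange factor TIAM1, and vehicle. Inhibitor cells received the same plasmid and EHT 1864, a RAC inhibitor, at 20 microM for 16 h. Control cells received an empty vector, with no vehicle named in the labels. Chromatin was taken 20 h after transfection in each condition. The lists hold 2 activator STAT5, 3 inhibitor BCL6, 2 control STAT5 and 2 control BCL6 libraries. Whether libraries of a group stem from separate cultures is not stated in the labels, and their spread may be technical only. The lists hold no expression values, so the cell type was not checked against markers.

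Apoptosis runs through 2 connected routes. In the mitochondrial route, BH3-only proteins such as BIM (gene BCL2L11) and BAD sense damage or lack of growth factors. They are held in check by BCL2, BCL-XL (BCL2L1), BCL-W (BCL2L2), MCL1 and BFL1 (BCL2A1), or free BAX and BAK to open the outer mitochondrial membrane. Released cytochrome c (CYCS) joins APAF1 to activate caspase-9, while released SMAC (DIABLO) removes the inhibitor of apoptosis proteins from caspases. In the receptor route, FAS and the TRAIL receptors recruit FADD and caspase-8, and cFLIP (CFLAR) blocks that step. STAT5 is known as an activator of survival genes such as BCL2L1 and MCL1 in blood cells, and BCL6 as a repressor of apoptosis genes in B cells. Both recognise the sequence TTCNNNGAA.

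Each list gives intervals between 3000 bp upstream and 1000 bp downstream of an Ensembl gene start on GRCh37, with 1 whole-number value per library, read here as a number of reads. Library depths are not known. The values of all intervals summed to 37629 and 44216 in activator STAT5, to 4390, 4606 and 5544 in inhibitor BCL6, and to 81105 to 100945 in the 4 control libraries. Control intervals needed a value of at least 2 in 1 library, whereas treated intervals needed that minimum in each of their libraries. Treated intervals never overlapped a control peak of their own antibody (0 of 14047 for activator STAT5, 0 of 1652 for inhibitor BCL6). Presence in a treated list against a control list is therefore no measure of gained or lost binding. With such lists no test between conditions was made, and each count of genes is set beside the share of 20056 protein-coding genes in the same list.

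Promoter sequences of RefSeq (GRCh38.p14, from 250 bases before to 50 after a transcript start) were found for 30 of the 38 genes, with 55 starts. They are of another build than the intervals, and the RefSeq and Ensembl starts need not be the same base. Printed here are BAX, whose activator STAT5 interval lay directly upstream of its start, and APAF1. The start of APAF1 was spanned by a control STAT5 interval with a value in both libraries. FAS, which is not printed, had such an interval too. BCL2A1 and CASP8 are printed as the only genes of the 30 whose promoter held TTCNNNGAA, which is its own reverse complement and was searched on both strands. Capitals mark that motif. CASP8 has further RefSeq starts, of which this is the one with the motif. All but BAX were chosen after the values were seen.
BAX (chr19:48954625-48954924, GRCh38.p14, plus strand): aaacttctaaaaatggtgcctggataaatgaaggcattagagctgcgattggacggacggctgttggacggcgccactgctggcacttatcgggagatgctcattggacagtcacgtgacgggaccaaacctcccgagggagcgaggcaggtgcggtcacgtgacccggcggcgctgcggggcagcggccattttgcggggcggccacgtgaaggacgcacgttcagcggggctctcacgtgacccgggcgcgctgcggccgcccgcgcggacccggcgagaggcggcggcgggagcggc
APAF1 (chr12:98645040-98645339, GRCh38.p14, plus strand): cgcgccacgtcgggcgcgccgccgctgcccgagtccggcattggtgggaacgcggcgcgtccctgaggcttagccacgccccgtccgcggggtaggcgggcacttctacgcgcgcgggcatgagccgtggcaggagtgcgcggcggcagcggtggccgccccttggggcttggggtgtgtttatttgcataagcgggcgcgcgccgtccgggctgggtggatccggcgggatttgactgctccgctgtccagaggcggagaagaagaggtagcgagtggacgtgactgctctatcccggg
BCL2A1 (chr15:79971147-79971446, GRCh38.p14, minus strand): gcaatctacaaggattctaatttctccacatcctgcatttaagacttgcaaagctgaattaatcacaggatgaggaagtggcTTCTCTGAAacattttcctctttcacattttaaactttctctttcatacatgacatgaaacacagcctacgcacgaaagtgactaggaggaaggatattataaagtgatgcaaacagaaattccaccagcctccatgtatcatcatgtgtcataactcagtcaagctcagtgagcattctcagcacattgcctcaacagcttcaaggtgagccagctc
CASP8 (chr2:201233213-201233512, GRCh38.p14, plus strand): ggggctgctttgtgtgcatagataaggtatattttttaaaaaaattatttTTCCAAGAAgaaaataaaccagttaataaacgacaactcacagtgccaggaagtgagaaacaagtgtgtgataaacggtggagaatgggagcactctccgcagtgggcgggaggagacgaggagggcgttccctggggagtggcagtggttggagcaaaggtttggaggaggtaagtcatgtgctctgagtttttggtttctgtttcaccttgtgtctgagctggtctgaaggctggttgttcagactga
The site was TTCTCTGAA at -168 in BCL2A1 and TTCCAAGAA at -200 in CASP8, counted from the transcript start. Neither site lay in an activator STAT5 interval. That of BCL2A1, from -2010 to -1778 bp of its Ensembl start, was wholly upstream of the window searched, and CASP8 had none. It occurred in 2 of the 55 promoters (3.64%), against 7.66% of all 35116 promoters of that length. The same ends with 4 bases between them, TTC and GAA, occurred in 1 of the 55, at a CFLAR start, against 6.44% of all. GC content was 67.3% in the BAX promoter, 71.3% in APAF1, 41.0% in BCL2A1 and 46.3% in CASP8. These promoters were chosen on different grounds, the last of them by the motif itself, as was BCL2A1, so the values are descriptions only. No match in a window says only that these letters are not in it.

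In activator cells, STAT5 intervals lay at 8 of the 38 apoptosis genes: BCL2L2, BCL2A1, BAX, CASP9, CYCS, DIABLO, BIRC2 and BIRC3. That is 21.1%, beside 26.1% of protein-coding genes, so apoptosis genes were not more often in this list than genes at large. Inhibitor BCL6 intervals lay at 0 of the 38, beside 3.3% of protein-coding genes. In control cells, STAT5 intervals lay at 31 of the 38 (81.6%, background 74.9%) and BCL6 intervals at 27 of the 38 (71.1%, background 73.9%). Both control lists held 24 of the genes (63.2%, against 63.6% of protein-coding genes), 7 were in the control STAT5 list and not the control BCL6 list, and 3 the other way round. For these counts of 7 and 3 genes, the matching share of protein-coding genes is that of the list, 74.9% or 73.9%, less the 63.6% in both. The difference between the counts was not tested. They are descriptions only, and nothing is concluded from them about a preference for either antibody. BCL2, BBC3, XIAP and TNFRSF10B had no row in the lists used here (4 of 38, 10.5%, against 14.3% of protein-coding genes). Shares near the background are not a result about these genes.

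**Figure D1:**
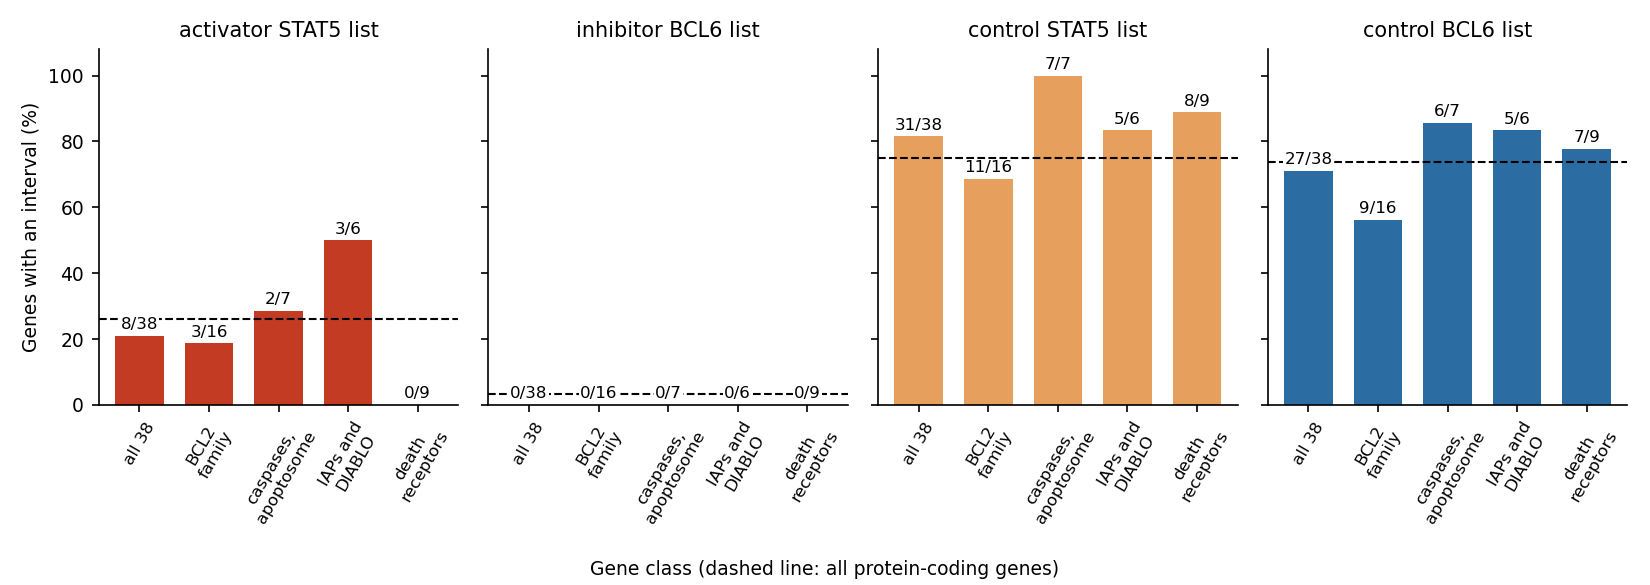
Bars give the percentage of genes of each class with at least 1 interval, in 1 panel for each separate list, with the number of genes above each bar and the share of all protein-coding genes as a dashed line. Among the 38 genes, activator STAT5 intervals were present at 3 of 6 inhibitors of apoptosis (with DIABLO) and 0 of 9 death receptor genes (dashed line at 26.1%). Some death receptor genes outside the 38, not drawn, had such an interval. No class had an inhibitor BCL6 interval (dashed line at 3.3%).

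Beside 26.1% of protein-coding genes, activator STAT5 intervals lay at 3 of 16 BCL2 family genes and 2 of 7 caspase and apoptosome genes. They lay at 3 of 6 genes of the inhibitors of apoptosis (BIRC2, BIRC3 and the antagonist DIABLO) and 0 of 9 death receptor genes. With 6 to 16 genes a class, these shares differ by a few genes, and the difference between classes was not tested. In control cells every class was represented in both lists, beside 74.9% (STAT5) and 73.9% (BCL6) of protein-coding genes. The BCL2 family had the lowest shares, 11 of 16 (STAT5) and 9 of 16 (BCL6). Caspases and apoptosome had the highest, 7 of 7 and 6 of 7.

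**Figure D2:**
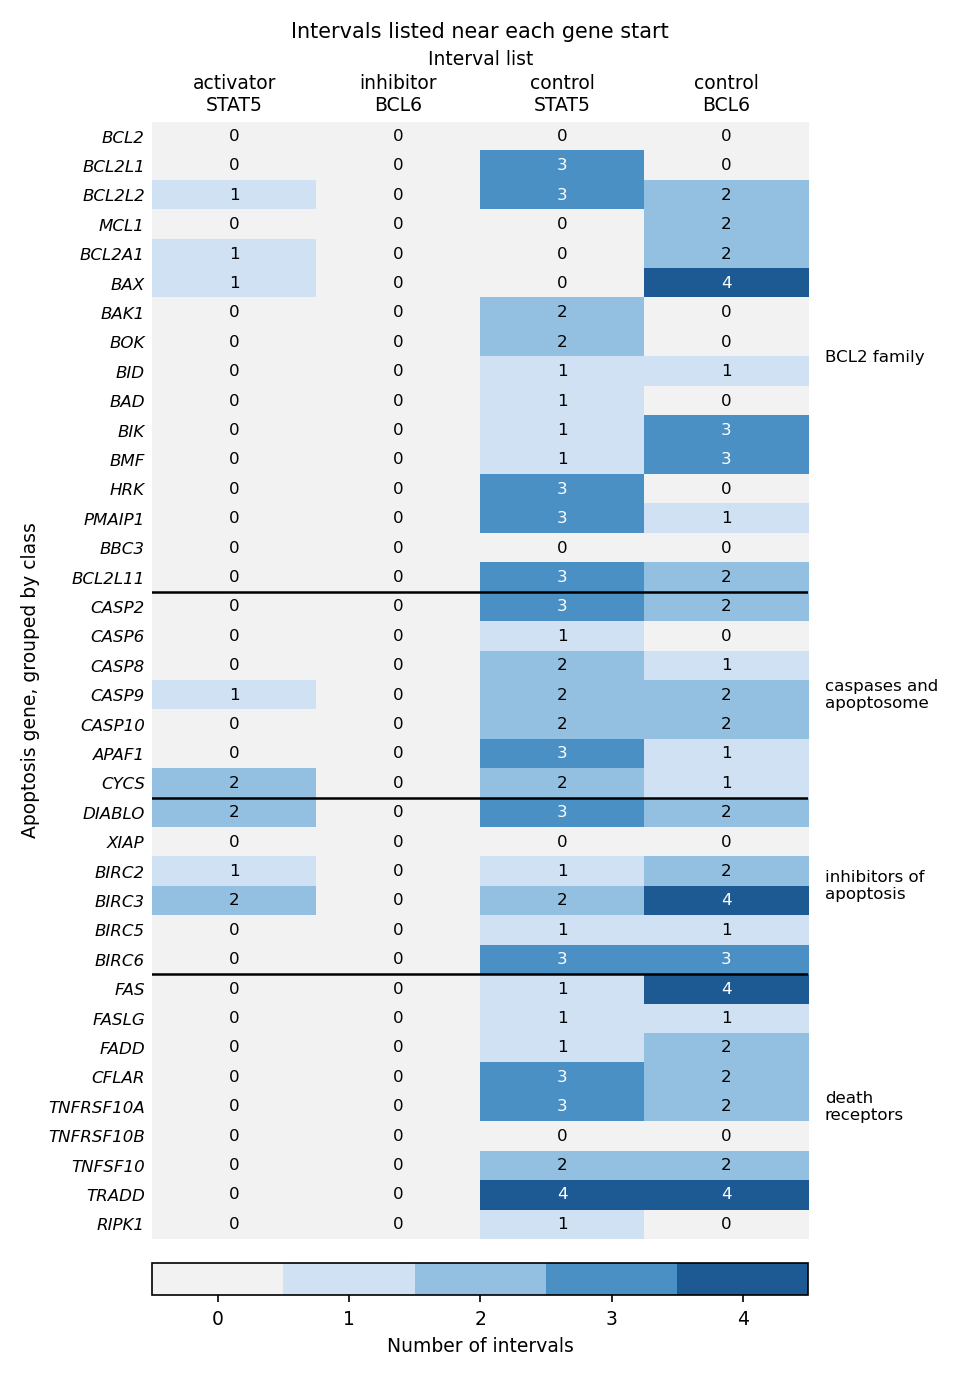
Each cell gives the number of intervals listed for a gene (rows, by class) in each separate list (columns), and darker blue means more. The column of inhibitor BCL6 is 0 throughout, and the most intervals at 1 gene were 4, at BAX, BIRC3, FAS and TRADD in control BCL6 and at TRADD in control STAT5.

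Among the anti-apoptotic BCL2 relatives, BCL2A1 and BCL2L2 had an activator STAT5 interval. BCL2A1 codes for BFL1, a short-lived guard of mitochondria known from blood cells. Its interval at chromosome 15, 80265566 to 80265798 (233 bp, centre at -1894 bp relative to the gene start), held 2 and 2 reads in the activator STAT5 libraries, the lowest listed value. It lay on a control BCL6 peak of 552 bp with values of 2 and 5, which covered 191 of its 233 bases (82.0%). The control STAT5 list held no interval at BCL2A1. BCL2L2, which codes for BCL-W, had an interval of only 11 bp at chromosome 14, 23775059 to 23775069, with values of 2 and 3. It began at the base directly after a control STAT5 peak (values of 0 and 3), with no base between them. For its other control intervals BCL2L2 had values of 2 and 0 and of 0 and 2 in STAT5, and of 0 and 3 at each of 2 in BCL6.

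BCL2L1 and MCL1 had control intervals and no treated one, and BCL2 itself had no row. BCL2L1, which codes for BCL-XL, had 3 control STAT5 intervals, with values of 3 and 0 (centre at -663 bp), 2 and 0 (-1291 bp) and 2 and 0 (742.5 bp). All 3 came from the first library alone, and the control BCL6 list held none. MCL1, a survival factor of fast turnover, showed the opposite arrangement. Its 2 control BCL6 intervals, one of them across the gene start, had values of 0 and 2 and of 0 and 4, all from the second library, and no control STAT5 interval was listed.

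Of the pore-forming members, BAX had an activator STAT5 interval close to its gene start. It spanned chromosome 19, 49457693 to 49458019 (327 bp, from -425 to -99 bp), with values of 5 and 4. At least 4 in both libraries was reached by 4.66% of activator STAT5 intervals and at 1.44% of protein-coding genes. The nearest control STAT5 peak lay 9341 bases away, and the nearest of the 4 control BCL6 intervals at BAX 683 bases away. Those 4 had values of 0 and 2, 3 and 0, 0 and 2, and 3 and 0, and none had a value in both libraries. The remaining pore-forming genes were in the control STAT5 list without a value in both libraries: BAK1 had 2 and 0 at each of 2 intervals, and BOK had 0 and 3 and 2 and 0. Both BAK1 intervals were also listed for GGNBP1, and the BOK interval of 2 and 0 also for BOK-AS1.

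None of the 8 BH3-only genes had a treated interval, beside 26.1% (activator STAT5) and 3.3% (inhibitor BCL6) of protein-coding genes. In control cells 7 of the 8 were in the STAT5 list (87.5%, background 74.9%) and 5 in the BCL6 list (62.5%, background 73.9%). BCL2L11, which codes for BIM, had a control STAT5 interval with 2 and 3 at chromosome 2, 111874296 to 111874838, and a control BCL6 interval with 4 and 0 that shared 486 bases with it. BAD, which couples survival signalling to BCL-XL, had 5 and 2 in control STAT5 at chromosome 11, 64054180 to 64054787, and no control BCL6 interval. BIK had its highest pair in control BCL6, 6 and 2 at chromosome 22, 43504798 to 43505235. PMAIP1, which codes for NOXA, had a value of 5 in the second control BCL6 library and 0 in the first, at an interval that shared 167 bases with a control STAT5 interval of 2 and 0. BID, BMF and HRK had no interval with a value in both libraries of a list.

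Among caspases, CASP9 had an activator STAT5 interval downstream of its gene start. CASP9, the initiator activated on the apoptosome, had values of 4 and 5 at chromosome 1, 15852319 to 15852453 (135 bp, centre at 643 bp). BAX and CASP9 were the only genes of the 38 with a value of at least 3 in both activator STAT5 libraries. The share of protein-coding genes at that cut was not computed. Both genes also reached at least 4, as did 1.44% of protein-coding genes, and the difference was not tested. Of all intervals in the list, 9.25% reached their sum of 9. The CASP9 interval was also listed for the neighbouring gene DNAJC16, so it cannot be assigned to either gene alone. The nearest control STAT5 peak was 385 bases away. At -1384 bp, CASP9 had a control STAT5 interval of 2 and 2, also listed for DNAJC16, with which a control BCL6 interval of 0 and 2 shared 276 bases. No exon annotation of GRCh37 was used, so exon or intron is not stated for any interval.

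CYCS, which codes for cytochrome c, had 2 activator STAT5 intervals, at chromosome 7, 25166578 to 25166810 and 25166838 to 25166895. Both had values of 2 and 3 and only 27 bases lay between them. They were 292 and 207 bases from the nearest control STAT5 peak, which had values of 2 and 0. No control BCL6 peak overlapped them.

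The remaining caspases and APAF1 had no treated interval. APAF1, the scaffold of the apoptosome, had the longest of the 4 control STAT5 intervals across a gene start (the others were at BOK, CASP8 and FAS), 779 bp at chromosome 12, 99039022 to 99039800, with values of 2 and 2. That interval was also listed for IKBIP. CASP2 had values in all 4 control libraries. Its control BCL6 interval of 4 and 2 at chromosome 7, 142982949 to 142983573, covered the whole of a control STAT5 interval of 0 and 2. CASP6, an executioner caspase, had 2 and 2 in control STAT5 and no control BCL6 interval. CASP8, CASP10 and CFLAR are neighbours on chromosome 2, with gene starts 66777 bp (CFLAR to CASP10) and 50562 bp (CASP10 to CASP8) apart. The start of CASP8 was spanned by a control STAT5 interval of 0 and 3, and CASP10 had 0 and 3 and 0 and 5 in control STAT5, each from the second library alone.

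The cellular inhibitors of apoptosis BIRC2 and BIRC3, ubiquitin ligases that restrain death receptor signalling, each had an activator STAT5 interval that met a control BCL6 peak. They are neighbours on chromosome 11, with gene starts 29772 bp apart. At BIRC3 the interval at 102186486 to 102186716 (231 bp, centre at -1594 bp) had 2 and 3 in activator STAT5, and a control BCL6 peak of 0 and 2 covered 124 of its bases (53.7%). It ended 1 base short of a control STAT5 peak of 2 and 0. Its further activator STAT5 interval, of 23 bp at 102188766 to 102188788, also had 2 and 3 and lay on no control peak. At BIRC2 the interval at 102216017 to 102216130 (114 bp) had 2 and 3 and met a control BCL6 peak by 4 bases (3.51%). That peak had values of 2 and 3 in the control BCL6 list, whereas the shared list gives 2 and 0 for the same place. BIRC2 had a single control STAT5 interval, of 0 and 4, 2388 bases away.

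DIABLO, whose product SMAC counters these inhibitors, had 2 activator STAT5 intervals of 80 and 52 bp at chromosome 12, 122712611 to 122712690 and 122712833 to 122712884. All their values were 2, and 142 bases lay between them. They were 234 and 448 bases from the nearest control STAT5 peak, and neither lay on a control BCL6 peak. BIRC6, a very large member of the family, had the most control intervals supported by both libraries. Its 3 control STAT5 intervals had values of 3 and 2, 4 and 3, and 3 and 2. BIRC6 lies on chromosome 2 between 30 and 75 Mb, a stretch in which both libraries gave a value at 18.4% of control STAT5 intervals, against 9.34% in the whole list. Its part in the BIRC6 result was not tested. BIRC5, which codes for survivin, had 0 and 2 in both control lists.

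None of the 9 death receptor genes among the 38 had a treated interval, beside 26.1% of protein-coding genes in the activator STAT5 list. This does not hold for the class at large. Outside the 38, TNFRSF10C, TNFRSF10D, TNFRSF21 and RIPK3 of the same class had an activator STAT5 interval, while other genes of the class did not. FAS, the receptor for FAS ligand, had control intervals of both antibodies at its gene start. The control STAT5 interval at chromosome 10, 90748837 to 90749373 (from -390 to 146 bp), had 2 and 2, and 213 of its bases were shared with a control BCL6 interval of 0 and 2. Further upstream FAS had 2 and 5 in control BCL6 at 90747253 to 90747635. This interval and the control STAT5 one each had a value in both libraries of their antibody, which no other of the 38 genes had in both control lists. They lay at different places, the control BCL6 one 1201 bases from the nearest control STAT5 peak. The share of protein-coding genes with both was not computed. For each list alone it was 13.8% (STAT5) and 12.3% (BCL6), so FAS is a description only. CFLAR, which codes for cFLIP, had 2 and 3 and 0 and 6 among its 3 control STAT5 intervals, against 2 and 0 and 0 and 2 in control BCL6. TRADD had 4 intervals in each control list, every one from a single library, and all of them were also listed for the neighbouring genes FBXL8 or HSF4. TNFSF10, which codes for TRAIL, and its receptor TNFRSF10A had control intervals with values of 0, 2 or 3. FASLG had 0 and 3 in control STAT5 and 0 and 2 in control BCL6, FADD 2 and 0 in STAT5 and 0 and 2 and 0 and 3 in BCL6, and RIPK1 a single 2 in control STAT5.

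**Figure D3:**
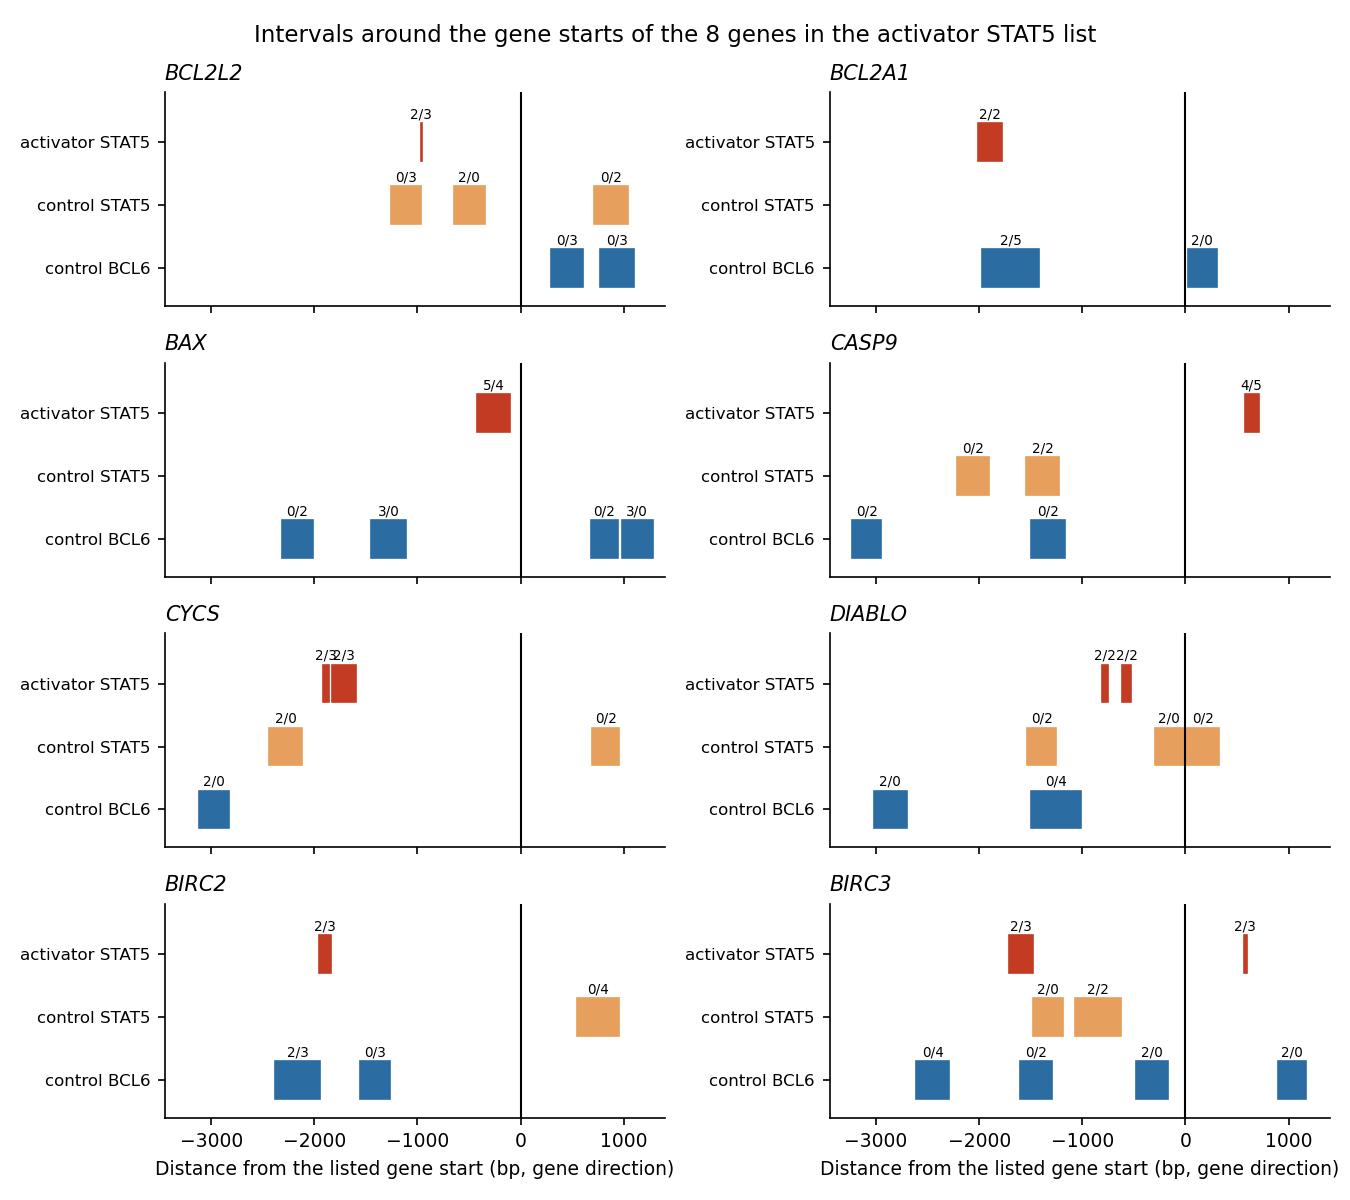
For the 8 genes in the activator STAT5 list, intervals are drawn to scale by distance from the gene start in bp, in the direction of the gene, with activator STAT5 above control STAT5 and control BCL6. Numbers above a block give the values in the first and second library. The block at BAX lies at -425 to -99 bp away from control blocks, and those at BCL2A1, BIRC2 and BIRC3 meet a control BCL6 block.

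In total the 8 genes held 11 activator STAT5 intervals with a median width of 114 bp, against 142 bp in the whole list. Values ran from 2 to 5 in each activator STAT5 library. In the first library 9 of the 11 were 2 (81.8%, against 64.9% of the whole list), and in the second 3 of the 11 (27.3%, against 53.4%), so the libraries lay on opposite sides of the whole list. Their centres were upstream of the gene start at 9 of 11 (81.8%, against 76.7% of protein-coding rows), and none spanned it. Of the 11, 3 lay on a control BCL6 peak (27.3%, against 25.6% of the whole list), which put BCL2A1, BIRC2 and BIRC3 in the authors' shared list. That is 3 of 38 genes (7.89%) beside 7.43% of protein-coding genes. The inhibitor BCL6 intervals on control STAT5 peaks held 0 of the 38, beside 0.863%. Of the 11, 1 directly touched a control STAT5 peak (9.09%, against 18.9% of the list), the one at BCL2L2. All these shares rest on 11 intervals.

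**Figure D4:**
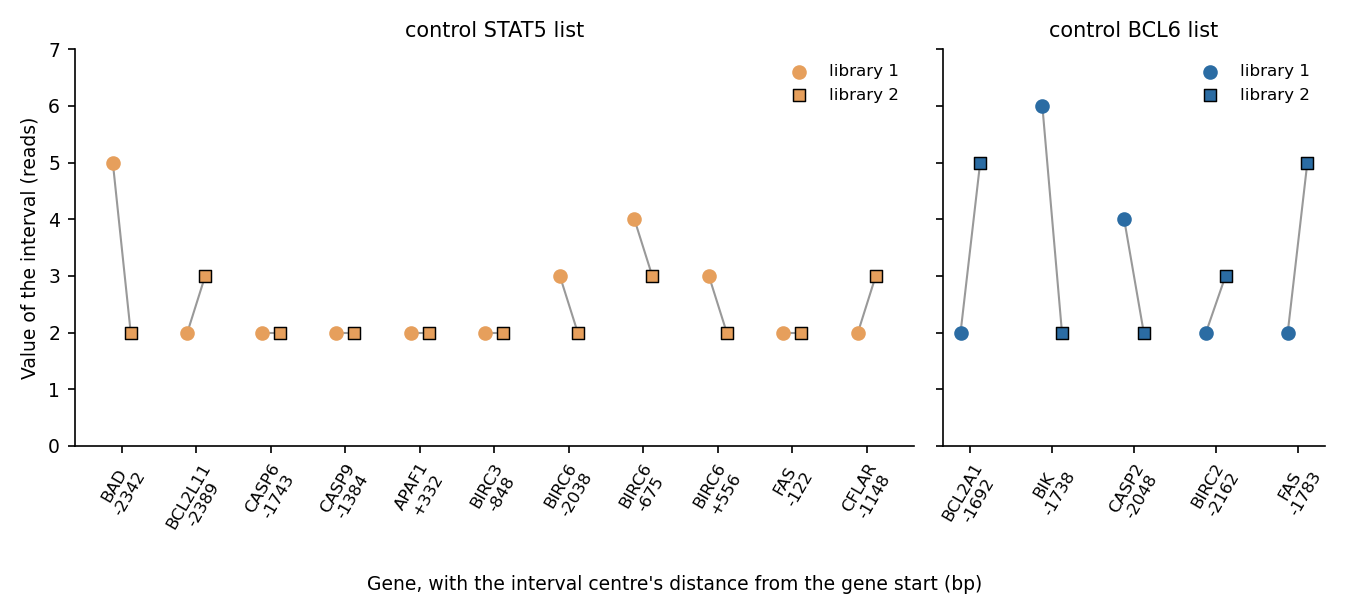
Points give the value in reads of each control interval found in both libraries, for the first library (circles) and the second (squares), with the antibody in 1 panel each and the centre's distance from the gene start under the gene name. The 11 control STAT5 intervals range from 2 to 5 and the 5 control BCL6 intervals from 2 to 6, and the highest of each, at BAD and BIK, has a value of 2 in the second library.

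Few control intervals were found in both libraries of their antibody. They numbered 11 of 64 in control STAT5 (17.2%, against 9.34% of the whole list) and 5 of 58 in control BCL6 (8.62%, against 9.19%). Of the 11, 3 were at BIRC6, in the stretch of chromosome 2 where that share was 18.4%. The difference from the whole list was not tested. By gene, 9 of 38 had one in control STAT5 (23.7%, background 13.8%): BCL2L11, BAD, CASP6, CASP9, APAF1, BIRC3, BIRC6, FAS and CFLAR. In control BCL6 it was 5 of 38 (13.2%, background 12.3%): BCL2A1, BIK, CASP2, BIRC2 and FAS. Of the 64 control STAT5 intervals, 15 overlapped a control BCL6 peak (23.4%, against 30.2% of the whole list), at 12 of the genes. A value in each of the 4 control libraries, at any of a gene's intervals, was found for 7 genes: CASP2, DIABLO, BIRC3, BIRC6, FAS, CFLAR and TRADD. For these counts of 12 and 7 genes no share of protein-coding genes was computed, so they are descriptions only. Between replicates the same interval could have 6 and 2, as at BIK, or 5 and 0, as at PMAIP1, so differences of this size between antibodies at a single gene were within the spread of replicates.

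A further 44 genes of the pathway, outside the 38, had shares of the same order. Activator STAT5 intervals were present at 13 of 44 (29.5%, background 26.1%), inhibitor BCL6 intervals at 1 of 44 (2.27%, background 3.3%), control STAT5 intervals at 37 (84.1%) and control BCL6 intervals at 31 (70.5%). HTRA2, a mitochondrial protease that acts beside SMAC, had 3 and 7 in activator STAT5 at chromosome 2, 74755988 to 74756108, directly beside a control STAT5 peak, and the interval was also listed for DQX1. TRAF1, a partner of BIRC2 and BIRC3, had 6 and 2 at chromosome 9, 123693967 to 123694227. TNFRSF21, also called death receptor 6, had 4 and 3 at chromosome 6, 47278665 to 47278895, an interval that lay wholly on a control BCL6 peak of 4 and 0 and touched a control STAT5 peak. CASP5, an inflammatory caspase, had 2 and 5 at an interval that met a control BCL6 peak of 4 and 0 by 5 bases, and 2 and 2 at one that touched a control STAT5 peak. The decoy receptors TNFRSF10C and TNFRSF10D had 3 and 4 and 2 and 2. The mitochondrial channel VDAC2 had 3 and 3 and the necroptosis kinase RIPK3 had 3 and 2, both at intervals that touched a control STAT5 peak. BCL2L13, BCL2L14, ENDOG and PARP1 had 2 and 2, and DFFA, the inhibitor of the apoptotic nuclease, had 2 and 3 and 2 and 2. The PARP1 interval was 2 bp wide. BNIP1, a BCL2 interacting protein, was the 1 gene with an inhibitor BCL6 interval, with 3, 2 and 3 at chromosome 5, 172570387 to 172570642, and it lay on no control STAT5 peak. Direct contact with a control STAT5 peak was found for 6 of the 15 activator STAT5 intervals of these 44 genes (40%), against 18.9% of the whole list and 1 of 11 at the 38 genes (9.09%).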

How the data were processed

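The members and gene lists were chosen with earlier results of these data known. The authors' deposited files are 4 separate and 2 shared interval lists. The build is GRCh37, and the tools named are Bowtie 0.12.7 and CASAVA 1.8.2, per the submitters' processing notes. The sources used here do not give the peak caller. The deposited values, with a header that names no quantity, were taken as counts: every value is 0 or at least 2, and in control intervals of 1 library the greatest width rose with the value, from 334 bp at 2 to at least 811 bp at 6. The deposited widths and distances are in bp; a distance is that of the interval's lower coordinate. The 9 library columns were matched to samples by condition and number, since the names of the control lists carry a treated condition; the other 5 libraries were not analysed here.

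Rows were selected by symbol, and a count of members per list was set beside the share of the 20056 protein-coding symbols of RefSeq (GRCh38.p14, used for names, types and promoters only); 26166 of 26333 listed symbols matched. Overlap meant at least 1 shared bp. Every member with a treated interval, or a control value in both libraries, was named; other members were named after their values were seen. No fit or test was made, since each list holds 1 antibody and condition under its own entry rule. Overlap, contact and motif searches were tested on simulated data. Python 3.11.15, pandas 2.3.3 and numpy 2.4.6 were used. No intervals are given for shares of genes, which are not samples.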

Additional observations from a re-analysis of the deposited data

How the results depend on the processing

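No paired analysis was possible because no result comes from a test, and the labels number the libraries in 1 run without pairing them. The 8 genes in the activator STAT5 list became 5 within 1000 bp of the gene start (deposited distance) and 2 (BAX and CASP9) at a value of at least 3 in both libraries. The 31 genes in control STAT5 became 14 at a value of at least 3 in 1 library or more. That cut is looser than the one used for activator STAT5, so these counts are not to be compared. With a value in both control STAT5 libraries, 9 genes remained (background 13.8%). The 27 in control BCL6 became 17 within 1000 bp and 5 with a value in both (background 12.3%). No share of protein-coding genes was computed for the other cuts by distance, value, width or contact. Those counts are therefore not to be set beside the main background shares. Of the 3 genes in the activator shared list, 1 (BCL2A1) had a control value in both libraries by the values of the shared list and 2 (BCL2A1 and BIRC2) by those of the control list, an alternative chosen after seeing the data, and 0 had at least 3 in both activator libraries. Without 1 control library the counts were 24 to 26 in control STAT5, 18 to 22 in control BCL6, 2 either way in the activator shared list and 0 in the inhibitor shared list. With the values of the control list, which gives 3 and not 0 for BIRC2 in the second control BCL6 library, the activator shared count was 3 without the first library and 2 without the second. Leaving out a treated library could give no value, since treated lists hold only intervals found in every library. Against all 59778 symbols, the background shares were 12.8% (activator STAT5), 1.6% (inhibitor BCL6), 37.8% (control STAT5), 37.4% (control BCL6), 3.63% (activator shared) and 0.417% (inhibitor shared), because most symbols outside the protein-coding ones have no interval. The count of 0 in the inhibitor BCL6 list was 0 under each alternative run. Older symbols changed no count. The activator STAT5 count was 7 with a width of at least 50 bp and 7 without intervals that touched a control STAT5 peak, and the activator shared count was 2 with at least 50% overlap.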
